A study of Mus musculus with 28 samples.

Results

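The gasdermin genes of the mouse were followed at the skin wound site over 7 time points, day 0, day 3, day 5, day 7, day 10, day 12 and day 14, with 4 RNA-seq libraries at each. The family was taken by gene symbol as Gsdma, Gsdma2, Gsdma3, Gsdmc, Gsdmc2, Gsdmc3, Gsdmc4, Gsdmd and Gsdme, and all 9 were among the 29068 genes of the count table. Of these, 7 passed the filter on low counts, together with 18107 genes in all, and Gsdmc3 and Gsdmc4 did not. The animals were wild type mice on the C57BL/6J background, the MLKL+/+ littermates of the study, and no library came from a treated or mutant animal. The wound was an excisional punch on the back that reached the fascia and healed without treatment. The wounds were collected whole, with scab and epithelial margin, so the tissues of the wound site were read together. The series calls the day 0 tissue, taken at 0 days from injury, the control, while the study counts the day of injury as day 1, and whether the day 0 tissue was taken before or just after wounding is not given in the sources used here. Nothing in the labels says which libraries came from separate animals, and p-values then measure only the spread between these libraries.

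Gasdermins are proteins with an N-terminal domain that forms pores in membranes and a C-terminal domain that holds it inactive. A protease cuts the linker between them, the N-terminal part inserts into the plasma membrane, and the pore lets out cytokines such as IL-1β and IL-18 or ends in a lytic death of the cell called pyroptosis. Gsdmd is cut by the inflammatory caspases and is known from macrophages and neutrophils, Gsdme is cut by granzyme B among other proteases, and Gsdmc is cut by caspase-8. The Gsdma genes are known from the epidermis and the hair follicle, and mutations of mouse Gsdma3 cause loss of hair. Transcript levels do not show whether any of these proteins was cut.

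The mouse carries the Gsdma and Gsdmc genes as tandem copies, so the sequences were compared before the values were read. In GRCm38, the build that the labels name as mm10, Gsdma3 (chr11:98626360-98638226), Gsdma2 (chr11:98646759-98657964) and Gsdma (chr11:98664351-98677708) lie side by side on the plus strand. Gsdmc (chr15:63775968-63808759), Gsdmc2 (chr15:63824346-63845177), Gsdmc3 (chr15:63857724-63878558) and Gsdmc4 (chr15:63891264-63912297) form a row on the minus strand of another chromosome. Gsdmd lies elsewhere on that chromosome (chr15:75862327-75867408, plus strand), and Gsdme lies on a chromosome of its own (chr6:50188888-50263862, minus strand). No other gene in the GENCODE annotation shares exon bases with any of the 9. The opening coding bases show how close the copies are, and here capitals mark each base that differs from the copy listed at the head of its set.
Gsdmc, exon 2, chr15:63804533-63804592: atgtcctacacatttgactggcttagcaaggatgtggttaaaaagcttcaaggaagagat
Gsdmc2, exon 4, chr15:63835884-63835943: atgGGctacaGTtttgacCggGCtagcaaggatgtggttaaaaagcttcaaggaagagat
Gsdmc3, exon 2, chr15:63869238-63869297: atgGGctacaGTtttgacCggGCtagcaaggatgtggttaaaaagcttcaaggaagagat
Gsdmc4, exon 2, chr15:63902871-63902930: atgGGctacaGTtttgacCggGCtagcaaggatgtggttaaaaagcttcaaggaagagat
Gsdma, exon 2, chr11:98666061-98666120: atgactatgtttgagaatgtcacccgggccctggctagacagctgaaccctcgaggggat
Gsdma2, exon 3, chr11:98649054-98649113: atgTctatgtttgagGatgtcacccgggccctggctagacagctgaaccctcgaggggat
Gsdma3, exon 2, chr11:98629352-98629411: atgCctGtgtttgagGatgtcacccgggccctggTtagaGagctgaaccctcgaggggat
Over these 60 bases Gsdmc2, Gsdmc3 and Gsdmc4 each differed from Gsdmc at 7 positions and were identical to each other, while Gsdma2 differed from Gsdma at 2 positions and Gsdma3 at 5.

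Over the whole coding sequence Gsdmc2 and Gsdmc3 were 97.1% identical, and each was 92.9% to 93.0% identical to Gsdmc4. Gsdmc was 82.5% to 83.8% identical to its copies, and Gsdma was 89.3% identical to Gsdma2 and 84.5% to Gsdma3. Shared stretches were searched among the genes of the family, its remaining gene Pjvk and the Gsdmc-like genes. Of all 100-base stretches of the Gsdmc2 transcript, 28.6% occur without a difference in a transcript of another of these genes, mostly that of Gsdmc3. The same share was 30.5% for Gsdmc3, 20.2% for Gsdmc4, 7.33% for Gsdmc, 3.05% for Gsdma2, 1.83% for Gsdma and 0% for Gsdma3, Gsdmd and Gsdme. Reads from the shared stretches cannot be placed in a single gene by sequence, and how the counting treated them is not given in the sources used here. Values for Gsdmc2, Gsdmc3 and Gsdmc4 are therefore uncertain as to the copy, and the summed counts of each cluster are given below as well. The sums hold the named copies and not the Gsdmc-like genes.

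**Figure D1:**
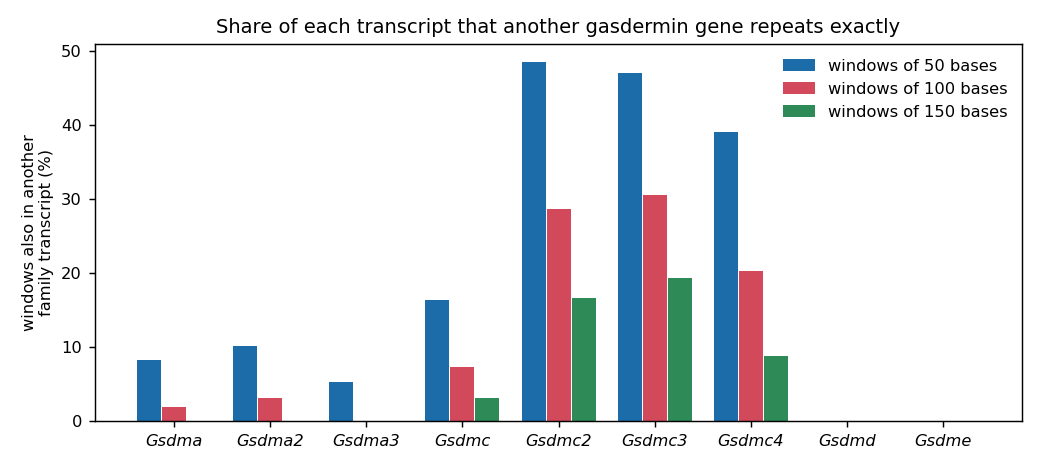
Share of each reference transcript's stretches of 50, 100 and 150 bases (y axis, percent) that occur identically in a transcript of another gene searched, for the 9 genes (x axis). The genes searched were these 9, Pjvk and the Gsdmc-like genes. Gsdmc2, Gsdmc3 and Gsdmc4 have the tallest bars at every length, and Gsdmd and Gsdme have none.

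The libraries held 36706513 to 40655764 counts each, of which 1632 to 4341 fell on the family. The day 0 libraries stood apart from one another. Across all tested genes the biological coefficient of variation, the spread between 2 libraries beyond counting error, was 4.57% to 14.9% for the 36 pairs of libraries within a later day. At day 0 it was 5.09% between replicates 2 and 3, 22.8% between replicates 1 and 4, and 29.1% to 30.8% for the 4 pairs that crossed these. Summed over 6 fibroblast markers, replicates 2 and 3 had 55970 and 53733 CPM (counts scaled to a common library total) and replicates 1 and 4 had 25002 and 14286. Skeletal muscle markers (4 genes) went the other way, with 15000 and 15310 CPM in replicates 2 and 3 against 24190 and 25374 in replicates 1 and 4. For this reason the changes from day 0 of the members, the cluster sums and the pathway lists were also fitted without replicates 1 and 4, and without replicates 2 and 3, and the comparisons between later days do not use day 0 at all. All 4 day 0 libraries were above every later library in the muscle sum, which was 3348 to 8351 CPM on the later days. Leaving out pairs does not address this difference, and its part in the changes from day 0 was not tested. Markers of skin were present throughout, since the 6 basal keratinocyte markers summed to at least 2984 CPM in every library. The 4 intestinal markers found in the table summed to at most 7.16 CPM.

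All 7 members that passed the filter varied over the 7 days at an adjusted p under 0.05, as did 89.5% of the 18107 genes tested (edgeR, quasi-likelihood fit, p-values adjusted after Benjamini and Hochberg). Against day 0, 4 members were higher and 3 lower at day 3, where 66.6% of all genes were called, 31.8% higher and 34.8% lower. At day 5 there were again 4 higher and 3 lower (59.5% of all genes, 29% higher and 30.6% lower). At day 7 there were 4 higher and 2 lower (50.4%, 25.6% and 24.8%), and at day 10 there were 3 in each direction (50.4%, 23.5% and 26.9%). By day 12 the count was 2 in each direction (47.3%, 21.7% and 25.6%), and at day 14 it was 3 higher and 2 lower (62.7%, 28.2% and 34.5%). The criteria in the study's methods, an absolute log2 change over 1.5 with an unadjusted p under 0.05, were met by 5 members at day 3 and 4 each at day 5 and day 7, beside 18.9%, 13.9% and 9.4% of all genes. They were met by 3 at day 10, 1 at day 12 and 2 at day 14, beside 9.47%, 7.39% and 14% of all genes. For the steps between neighbouring later days the counts by these criteria were 1, 0, 0, 3 and 0, beside 2.91%, 3.66%, 4.61%, 6.01% and 3.57%. By the adjusted p they were 3, 2, 3, 5 and 1, where 24.3% of all genes were called from day 3 to day 5, 28.5% from day 5 to day 7, 32.3% from day 7 to day 10, 39.4% from day 10 to day 12 and 45.2% from day 12 to day 14. The family was chosen with results of these libraries known, so the counts are not independent evidence of direction. With shares this large among all genes, the sizes and the order of the days are described rather than the number of members called. The median log2 change of the 7 members from day 0 was 0.98 at day 3, 0.76 at day 5, 0.41 at day 7, 0.13 at day 10, 0.29 at day 12 and -0.05 at day 14, beside -0.03, -0.02, 0.00, -0.02, -0.04 and -0.06 for all tested genes.

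**Figure D2:**
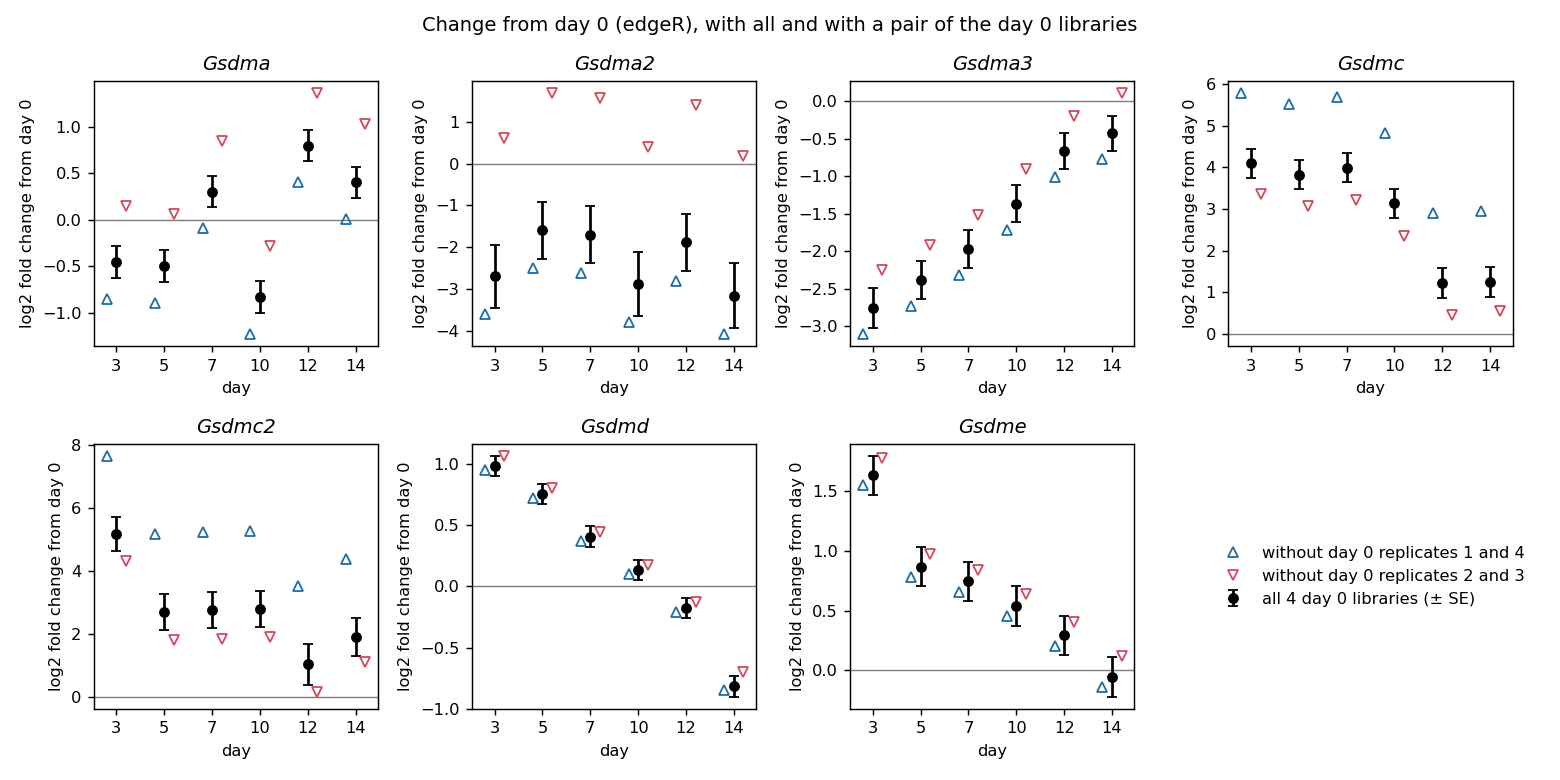
Log2 fold change from day 0 (y axis, own scale in each panel) at each later day (x axis) for the 7 tested members, from edgeR, where filled points use all 4 day 0 libraries and bars give the SE. Open triangles leave out a pair of the day 0 libraries: they lie close to the filled points for Gsdmd and Gsdme, and on opposite sides of 0 at day 3, day 5 and day 7 for Gsdma and at every day for Gsdma2.

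Gsdmd, the pore protein downstream of the inflammasome, rose 1.97-fold by day 3 and then fell at every step until day 14, when it was 1.76-fold below day 0. Its FPKM, a level scaled to gene length and library total, was 12.5, 11.1, 12.6 and 9.89 in the 4 day 0 libraries. At day 3 the libraries held 21.4, 22.8, 20.4 and 23.0, at day 5 18.4, 18.7, 18.9 and 19.8, and at day 7 14.9, 14.1, 15.9 and 16.4. All libraries of day 3, day 5 and day 7 were above every day 0 library. At day 10 the values were 13.7, 13.3, 12.4 and 13.0, at day 12 11.3, 11.9, 11.8 and 10.0, and at day 14 7.50, 6.87, 5.78 and 8.45. Day 10 and day 12 overlapped day 0, and all 4 day 14 libraries lay below it.

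The log2 change of Gsdmd from day 0 was 0.98 ± 0.08 (SE) at day 3 with an edgeR adjusted p of 3.29e-11, and fell by 0.82 ± 0.08 at day 14 with an edgeR adjusted p of 2.86e-09. An exact two-sided permutation test gave 0.0286 for both, the smallest p that 4 libraries against 4 allow. Among the members only Gsdmd passed at every step between neighbouring later days in edgeR. The fall was 1.17-fold from day 3 to day 5 (edgeR adjusted p = 0.0432), a call that ended with upper quartile factors (0.11) and library totals (0.077) and held with DESeq2 size factors (0.0306). In limma on log2(FPKM + 1) with a mean FPKM of at least 1, this call was lost as well, with 0 members called. It also ended without day 3 replicate 2 or 4 (edgeR adjusted p = 0.0558 and 0.066) and without day 5 replicate 1 or 2 (0.0966 and 0.0952). The later steps were 1.27-fold, 1.21-fold, 1.24-fold and 1.56-fold, with edgeR adjusted p of 0.00157, 0.0113, 0.00338 and 7.68e-07. In order of level the days ran 3, 5, 7, 10, 0, 12 and 14, and day 0 could not be told from day 10 (edgeR adjusted p = 0.187) or day 12 (0.0769, and 0.0283 without day 0 replicate 4). Without day 0 replicates 1 and 4 the day 3 change was 0.95, and without replicates 2 and 3 it was 1.07.

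Macrophage markers moved with Gsdmd on some days and not on others. The 8 genes summed to 1270 to 1780 CPM at day 0, 3368 to 3428 at day 3, 3232 to 3534 at day 5, 2162 to 2250 at day 7, 1091 to 1212 at day 10, 1191 to 1315 at day 12 and 439 to 474 at day 14, with none of the 8 at 0 on any day. At day 10, when Gsdmd was not called against day 0, 6 of the 8 were lower and 2 higher, and from day 10 to day 12, when Gsdmd fell, 3 were higher and 2 lower. The 8 neutrophil markers summed to 16.4 to 42.7 CPM at day 0, with 2 of them at 0, to 4372 to 5517 at day 3 and to 15.2 to 18.6 at day 14. Their part in the change of Gsdmd was not tested, and in bulk tissue fewer cells of a type and less RNA per cell cannot be told apart. The cut that frees the pore domain falls after residue 276 of the 487 residues in the reference coding sequence. The coding bases 802 to 843 around it span exons 7 and 8 (chr15:75866152-75866312, with the intron left out) and are shown with the last 4 codons before the cut in capitals.
Gsdmd: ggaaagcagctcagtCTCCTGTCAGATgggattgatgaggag

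Gsdme, a member known from lytic death downstream of granzymes, peaked at day 3 at 3.10 times its day 0 level and was back in the day 0 range by day 14. The day 0 libraries held 101, 94, 101 and 62 counts and the day 3 libraries 267, 293, 240 and 270. At day 5 there were 149, 167, 134 and 198 counts, at day 7 146, 139, 157 and 175, and at day 10 146, 108, 141 and 150. Every library of day 3 to day 10 was above every day 0 library. At day 12 the counts were 125, 125, 105 and 146, and at day 14 72, 90, 118 and 96. After normalization both of these days overlapped day 0.

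The log2 change of Gsdme from day 0 was 1.63 ± 0.16 at day 3 (edgeR adjusted p = 1.04e-09), 0.87 ± 0.16 at day 5 (4.97e-05), 0.75 ± 0.16 at day 7 (0.00042) and 0.54 ± 0.17 at day 10 (0.00761). At day 12 it was 0.29 ± 0.17 and at day 14 -0.05 ± 0.17, with edgeR adjusted p of 0.151 and 0.808. Between neighbouring days the fall from day 3 to day 5, 1.70-fold, was the step that passed (edgeR adjusted p = 0.000556). Day 5, day 7, day 10, day 12, day 0 and day 14 followed each other in level with no neighbouring pair past the threshold. The day 10 call was lost without day 0 replicates 1 and 4 (log2 change 0.46, edgeR adjusted p = 0.0512). Among the 5 members with a mean of at least 1 CPM, which leaves out Gsdma2 and Gsdmc2, Gsdme was the closest to Gsdmd in pattern, with a Pearson correlation of log2 CPM of 0.83 over the 28 libraries, a description across libraries that share their days.

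**Figure D3:**
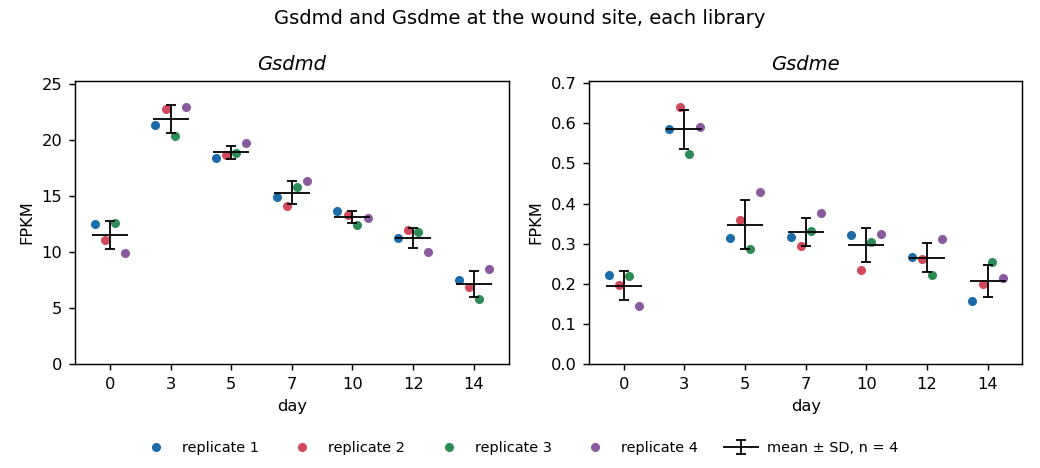
FPKM of Gsdmd and Gsdme (y axes) in each library by day (x axis), with the mean and SD of 4 libraries in black. Both are highest at day 3, and Gsdmd at day 14 lies below all day 0 libraries while Gsdme overlaps them.

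Gsdmc, an epithelial member, rose from a low level to a plateau that lasted from day 3 to day 7. Its counts at day 0 were 93, 19, 7 and 44, against 852, 615, 583 and 666 at day 3, 608, 544, 622 and 552 at day 5, and 622, 755, 671 and 658 at day 7. The FPKM was 0.444 ± 0.412 (SD, n = 4) at day 0, 7.31 ± 1.31 at day 3, 6.13 ± 0.387 at day 5 and 7.10 ± 0.546 at day 7. Every library of these 3 days was above the highest at day 0. At day 10 the counts were 387, 352, 345 and 432, at day 12 108, 106, 141 and 84, and at day 14 55, 113, 122 and 138. The day 10 libraries were still above all of day 0, and those of day 12 and day 14 overlapped day 0 through its replicate 1.

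The log2 change of Gsdmc from day 0 was 4.10 ± 0.34 at day 3, 3.83 ± 0.34 at day 5 and 4.00 ± 0.34 at day 7, with edgeR adjusted p of 2.94e-11, 1.56e-10 and 1.2e-10. It was 3.14 ± 0.34 at day 10 (edgeR adjusted p = 1.36e-08), 1.22 ± 0.36 at day 12 (0.00621) and 1.25 ± 0.36 at day 14 (0.00343). Day 3, day 5 and day 7 could not be told apart, and the fall came afterwards, 1.82-fold from day 7 to day 10 (edgeR adjusted p = 0.0183) and 3.77-fold from day 10 to day 12 (1.07e-05). The first of these falls missed the threshold without replicate 2 of day 7 or of day 10 (edgeR adjusted p = 0.0502 and 0.0515). The size of the rise depended on the day 0 libraries. Its log2 value at day 3 was 5.79 without replicates 1 and 4 and 3.37 without replicates 2 and 3, and the calls at day 12 (0.46, edgeR adjusted p = 0.166) and day 14 (0.55, 0.077) were lost without replicates 2 and 3. The 4 markers of wound edge keratinocytes, Krt6a, Krt6b, Krt16 and Krt17, summed to 468 to 709 CPM at day 0, 2454 to 2984 at day 3, 1696 to 2115 at day 5, 1393 to 1742 at day 7, 1279 to 1444 at day 10, 897 to 1013 at day 12 and 1486 to 1792 at day 14. From day 7 to day 10, at the first fall of Gsdmc, 0 were called higher and 0 lower, with a median log2 change of -0.16. From day 10 to day 12, when Gsdmc fell further, 3 of the 4 were called lower and 1 higher, with a median log2 change of -2.38. From day 12 to day 14 a single marker of the 4 was called higher and 1 lower, with a median log2 change of -0.05, and their part in the level of Gsdmc was not tested.

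Gsdmc2 shared the early rise, fell after day 3 and stayed above day 0 until day 10. It had 7, 1, 0 and 5 counts at day 0, 171, 98, 85 and 117 at day 3, 31, 19, 15 and 21 at day 5, and 9, 21, 19 and 44 at day 7. At day 10 the counts were 22, 23, 27 and 26, at day 12 10, 7, 4 and 10, and at day 14 6, 14, 10 and 25. Day 3 stood above every other day in all 4 libraries.

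The log2 change of Gsdmc2 from day 0 was 5.17 ± 0.53 at day 3 (edgeR adjusted p = 1.76e-09) and 2.68 ± 0.58 at day 5 (0.000227), after a fall of 5.62-fold between these days (5.17e-05). The changes from day 0 passed with either pair of day 0 libraries left out, at 7.66 and 5.17 without replicates 1 and 4 and at 4.33 and 1.80 without replicates 2 and 3, and without replicate 1 alone they were 5.89 and 3.36. At day 7 and day 10 the log2 change was 2.74 ± 0.57 and 2.79 ± 0.57 (edgeR adjusted p = 0.000223 and 0.000172), with no overlap with day 0, and both passed with either pair left out. At day 12 it was 1.03 ± 0.65 (edgeR adjusted p = 0.204), which passed without replicates 1 and 4 (3.51, 0.00984). At day 14 it was 1.91 ± 0.60 (edgeR adjusted p = 0.00764), a call that was lost without replicates 2 and 3 (1.09, 0.136) and without day 14 replicate 4 (1.46, 0.051), and also in limma voom and in limma on log2(FPKM + 1), with adjusted p of 0.111 and 0.237. From day 3 to day 5, when Gsdmc2 fell, Gsdmc had a log2 change of -0.27 ± 0.27 with an edgeR adjusted p of 0.529. There were 5.77 Gsdmc counts for each Gsdmc2 count at day 3 and 27.0 at day 5, with ranges over the libraries of 4.98 to 6.86 and 19.6 to 41.5 that do not meet. The difference between the copies in this step was not tested in a model of its own. Gsdmc3 had 0 to 18 counts and Gsdmc4 0 to 6 in any library. The highest Gsdmc3 count, 18, was in a single day 3 library beside 0, 1 and 0 in the others, and Gsdmc4 had 6, 2, 4 and 2 at day 3 and at most 4 elsewhere, so neither could be followed at this depth. Summed over the 4 genes the cluster had 106, 20, 7 and 52 counts at day 0 and 1029, 733, 673 and 785 at day 3, a log2 change of 4.16 ± 0.35 (edgeR adjusted p = 4.22e-11). Gsdmc itself made up 84.3% of the cluster's counts at day 3 and 96.3% at day 7.

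**Figure D4:**
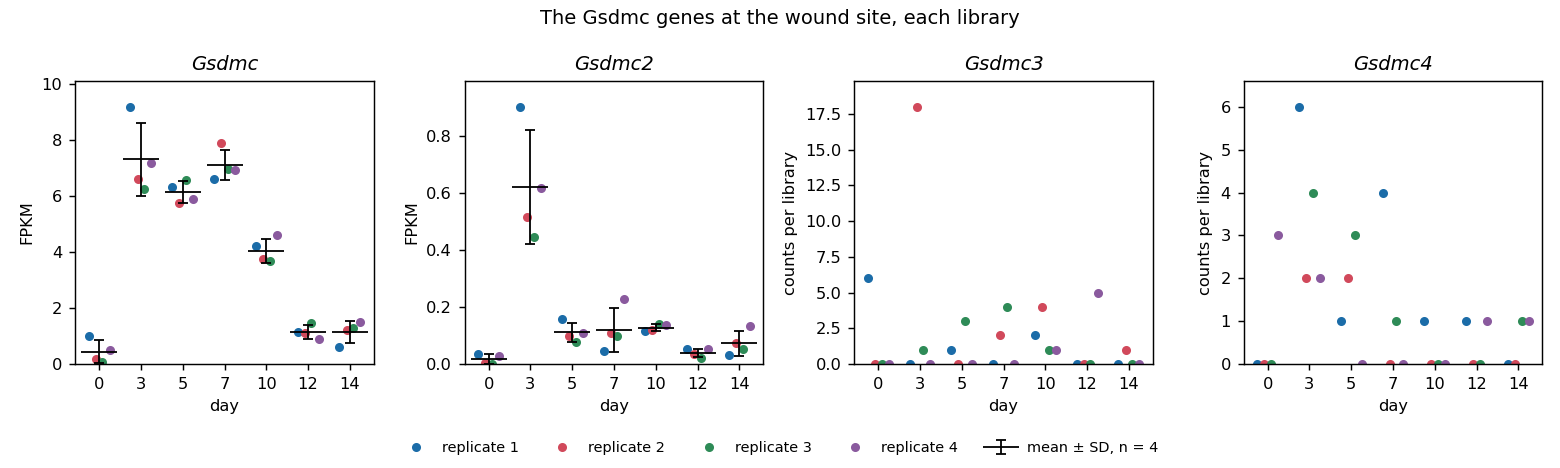
FPKM of Gsdmc and Gsdmc2 and counts of Gsdmc3 and Gsdmc4 (y axes) in each library by day (x axis), with the mean and SD of 4 libraries in black for the first pair. Gsdmc stays high from day 3 to day 7, Gsdmc2 is highest at day 3 in all 4 libraries and lower from day 5 on, and Gsdmc3 and Gsdmc4 stay below 20 counts in every library.

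The Gsdma genes did not share this course. Gsdma moved up and down several times. Its FPKM was 10.4, 15.3, 17.2 and 6.29 in the day 0 libraries, 10.2, 7.96, 8.25 and 8.18 at day 3, and 8.64, 7.11, 8.97 and 9.15 at day 5. At day 7 it was 13.7, 15.9, 14.8 and 16.5, and at day 10 it was 7.21, 7.62, 5.97 and 7.90. At day 12 the libraries held 22.4, 25.6, 22.4 and 24.3, and at day 14 18.6, 18.8, 17.0 and 16.7. The later days were tight, with day 12 above every other library of the series and day 7 clear of both day 5 and day 10, while the day 0 libraries spread over most of the range.

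Between neighbouring days Gsdma rose 1.74-fold from day 5 to day 7 (edgeR adjusted p = 0.000635), fell 2.20-fold from day 7 to day 10 (8.45e-06) and rose 3.10-fold from day 10 to day 12 (1.43e-08). The step from day 12 to day 14, 1.32-fold lower, missed the threshold (edgeR adjusted p = 0.0546), although the libraries did not overlap. Against day 0 the log2 change was -0.46 ± 0.17 at day 3, -0.50 ± 0.17 at day 5, 0.30 ± 0.17 at day 7, -0.84 ± 0.17 at day 10, 0.80 ± 0.17 at day 12 and 0.40 ± 0.17 at day 14. Each of these values rests on the mix of day 0 libraries. Without replicates 2 and 3 they became 0.14, 0.06, 0.85, -0.28, 1.37 and 1.03, and without replicates 1 and 4 they became -0.85, -0.89, -0.09, -1.23, 0.40 and 0.01. Single libraries also ended the calls at day 3 (edgeR adjusted p = 0.175 without day 0 replicate 3), day 5 (0.111 without the same library) and day 14 (0.0791 without day 14 replicate 1). Only the rise at day 12 kept its direction and its call with either pair left out (edgeR adjusted p = 4.57e-09 and 0.00119).

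Markers of the hair shaft and inner root sheath also rose and fell more than once. The 10 genes summed to 272 to 2379 CPM at day 0, 7.94 to 14.8 at day 3, 13.9 to 22.5 at day 5 and 1372 to 1863 at day 7. At day 10 the sum was 258 to 298, at day 12 5015 to 6629 and at day 14 4945 to 6607. Among the later days, day 7, day 12 and day 14 were thus the 3 with the highest levels of both Gsdma and the hair markers, although from day 12 to day 14, when Gsdma had a log2 change of -0.40 (edgeR adjusted p = 0.0546), 5 of the 10 hair markers were called higher and 2 lower. Of 6 markers of differentiated keratinocytes, 6 were called higher from day 5 to day 7, 5 lower from day 7 to day 10, 5 higher from day 10 to day 12, and 5 lower and 1 higher from day 12 to day 14. Their sum was 3404 to 3775 CPM at day 0, 1076 to 1466 at day 3, 1993 to 2309 at day 5, 2869 to 3411 at day 7, 1747 to 2070 at day 10, 3063 to 3400 at day 12 and 1226 to 1570 at day 14. The part of either cell type in the level of Gsdma was not tested.

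Gsdma3, the copy known from hair loss mutants, fell deeply and came back over the whole course. The day 0 libraries held 305, 411, 438 and 157 counts, those of day 3 74, 43, 31 and 37, those of day 5 43, 52, 65 and 87, and those of day 7 84, 92, 91 and 75. At day 10 the counts were 165, 108, 114 and 142, at day 12 275, 234, 239 and 192, and at day 14 208, 259, 296 and 295. After normalization day 3 to day 10 lay below every day 0 library, and day 12 and day 14 overlapped them.

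The log2 change of Gsdma3 from day 0 was -2.76 ± 0.27 at day 3 (edgeR adjusted p = 5.9e-10), -2.38 ± 0.26 at day 5 (7.53e-09), -1.97 ± 0.25 at day 7 (2.16e-07) and -1.36 ± 0.24 at day 10 (3.29e-05). The fall at day 3 was 6.77-fold. At day 12 it was -0.66 ± 0.24 (edgeR adjusted p = 0.0223) and at day 14 -0.42 ± 0.23 (0.119). The values for day 3 to day 10 passed with either pair of day 0 libraries left out, -2.25 to -0.90 without replicates 2 and 3 and -3.10 to -1.71 without replicates 1 and 4, whereas the day 12 call was lost without replicates 2 and 3 (-0.19, edgeR adjusted p = 0.584), and also without replicate 2 (0.0748), replicate 3 (0.105) or day 12 replicate 4 (0.0739) alone. The day 14 value passed without replicates 1 and 4 (-0.77, edgeR adjusted p = 0.00192) and without replicate 4 alone (-0.56, 0.0202), and was 0.11 without replicates 2 and 3. Among the later days, day 10 to day 12 was the step that passed, a 1.63-fold rise (edgeR adjusted p = 0.023) that missed the threshold without day 10 replicate 2 or 3 or day 12 replicate 1 (0.0687, 0.0626 and 0.0763). From day 3 to day 14 the rise was 5.05-fold (edgeR adjusted p = 1.25e-08). There were 4.12 Gsdma counts for each Gsdma3 count at day 0, 3.73 to 4.31 in its 4 libraries although their levels differed, and 20.4 at day 3, 5.95 at day 10 and 11.3 at day 12.

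Markers of other skin cells moved over the same days as Gsdma3. Of 8 sebaceous gland markers, 6 were called lower and 2 higher than day 0 at day 3, day 5 and day 7, with median log2 changes of -2.08, -1.24 and -1.20, and the medians were -0.51, -0.29 and -0.43 at day 10, day 12 and day 14. Their sum did not follow the medians, at 4880 to 6510 CPM at day 0, 7370 to 8253 at day 3, 5306 to 6101 at day 5, 7795 to 8582 at day 7, 7355 to 7499 at day 10, 5439 to 6411 at day 12 and 5581 to 6941 at day 14. Of 6 markers of basal keratinocytes, 5 were called lower and 0 higher at day 3, day 5 and day 7, with medians of -0.89, -1.22 and -1.19, followed by -0.71, -0.61 and -0.39. These summed to 3853 to 8098 CPM at day 0, 3436 to 4288 at day 3, 3078 to 3525 at day 5, 2984 to 3462 at day 7, 4474 to 5143 at day 10, 3926 to 3977 at day 12 and 4729 to 5921 at day 14. No marker of either list was at 0 on any day, the lists were not refitted with day 0 libraries left out, and their part in the level of Gsdma3 was not tested.

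Gsdma2 was low and its day 0 value came from a pair of libraries. It had 4, 68, 71 and 3 counts at day 0, 9, 7, 5 and 0 at day 3, 11, 11, 15 and 10 at day 5, and 11, 20, 6 and 8 at day 7. At day 10 the counts were 4, 11, 1 and 4, at day 12 7, 8, 15 and 14, and at day 14 3, 7, 1 and 6. Replicates 2 and 3 of day 0 were thus above every other library of the series, and replicates 1 and 4 were within the later range. With all libraries Gsdma2 was called lower on each later day, by 1.59 on the log2 scale at day 5 (edgeR adjusted p = 0.0472) up to 3.17 at day 14 (0.000885). Without day 0 replicates 2 and 3 the log2 changes turned positive, 0.18 to 1.69, and none of the 6 passed the edgeR threshold. An exact permutation test over all libraries gave p of 0.229 to 0.6.

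Summed over its 3 genes, the Gsdma cluster had 1447, 2210, 2395 and 804 counts at day 0, 1190, 916, 937 and 928 at day 3, 948, 957, 773 and 1017 at day 10 and 2791, 3150, 2786 and 2917 at day 12. Gsdma was 78.7% of them at day 0 and 94.8% at day 3. The log2 change of the sum was -0.72 ± 0.17 at day 3, -0.95 ± 0.17 at day 10 and 0.58 ± 0.17 at day 12, with edgeR adjusted p of 0.00064, 4.92e-05 and 0.00613. At day 7 it was 0.04 ± 0.17 (edgeR adjusted p = 0.867), and it passed in opposite directions with a pair of day 0 libraries left out, -0.36 without replicates 1 and 4 and 0.60 without replicates 2 and 3 (0.0025 and 0.000657). Like the values of Gsdma it depended on the day 0 libraries, since the day 12 rise was 0.18 without replicates 1 and 4 (edgeR adjusted p = 0.126) and the day 3 value was -0.11 without replicates 2 and 3 (0.48).

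**Figure D5:**
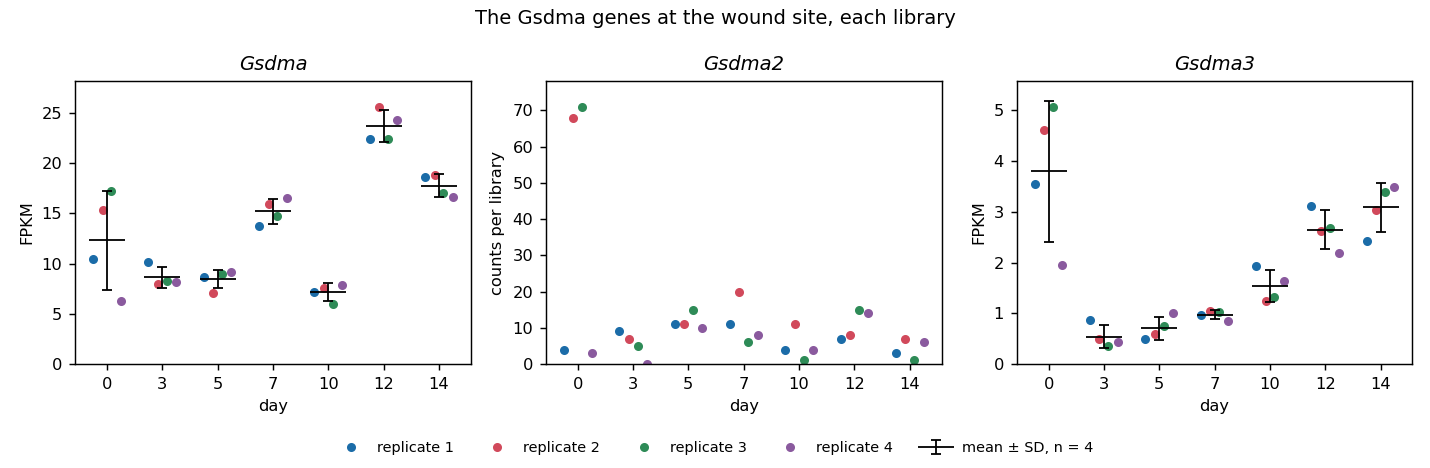
FPKM of Gsdma and Gsdma3 and counts of Gsdma2 (y axes) in each library by day (x axis), with the mean and SD of 4 libraries in black for the FPKM panels. Gsdma is highest at day 12, Gsdma3 falls at day 3 and climbs back, and Gsdma2 is above 20 counts in day 0 replicates 2 and 3 alone.

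Per length, Gsdma and Gsdmd were the most abundant members at day 0, at 12.3 ± 4.92 and 11.5 ± 1.28 FPKM (SD, n = 4), a difference within the spread of the libraries. Gsdma3 followed at 3.79 ± 1.39. Gsdma2 was at 0.524 ± 0.545, Gsdmc at 0.444 ± 0.412 and Gsdme at 0.196 ± 0.0358, with ranges over the libraries that overlap, and Gsdmc2 at 0.0174 ± 0.0177. At day 3 Gsdmd stood at 21.9 ± 1.23, Gsdma at 8.64 ± 1.03 and Gsdmc at 7.31 ± 1.31, while Gsdmc2 at 0.619 ± 0.200, Gsdme at 0.585 ± 0.0482 and Gsdma3 at 0.539 ± 0.224 overlapped, and Gsdma2 was at 0.0768 ± 0.0566. Gsdmc3 and Gsdmc4 were left out of this order. At day 14 Gsdma was at 17.8 ± 1.12 and Gsdmd at 7.15 ± 1.12, the reverse of day 3 and without overlap on either day. The FPKM of Gsdme was computed by the authors over 11715 bases, more than the 2502 bases of its reference coding transcript. Those of Gsdmc2 and Gsdma3 used 4875 and 2200 bases, beside 2162 and 1477 in their reference coding transcripts. A shorter length would raise each of them on every day alike. Their places in this order, and their overlap at day 3, rest on those lengths. At day 0 Gsdme had more counts than Gsdmc in each library, with 101 against 93 in replicate 1. Across the 28 libraries log2 CPM of Gsdma3 had a Pearson correlation of -0.86 with Gsdmc and -0.79 with Gsdmd, while Gsdmc and Gsdmd had 0.67 and Gsdma and Gsdma3 0.52, as descriptions only.

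The genes that act with the gasdermins were described as lists, beside the shares of all genes given above. Among 13 tested inflammasome sensors and adaptors 10 were higher and 1 lower than day 0 at day 3, 3 higher and 4 lower at day 10, and 0 higher and 11 lower at day 14. Nlrp3, a sensor of damage in myeloid cells, rose by a log2 change of 5.43 at day 3 (edgeR adjusted p = 3.89e-21), was still up by 2.37 at day 10 (6.35e-13) and fell by 1.47 at day 14 (9.28e-07). Mefv, which encodes the sensor pyrin, had a log2 change of 3.49 at day 3 and -1.95 at day 14 (edgeR adjusted p = 1.5e-21 and 1.72e-14). Aim2, a sensor of DNA, rose by 1.01 at day 3 (edgeR adjusted p = 3.51e-09). Nlrp10, a sensor known from keratinocytes, went the other way, with a fall of 1.72 at day 3 (edgeR adjusted p = 1.48e-10). The adaptor Pycard held 20.4 FPKM at day 0 and 19.7 at day 3, a log2 change of 0.01 (edgeR adjusted p = 0.933), and Nlrp6 was not tested for low counts.

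Of 7 caspases 5 were higher and 1 lower at day 3. Casp4, the receptor of bacterial lipopolysaccharide that cuts Gsdmd, rose by 1.34 on the log2 scale at day 3 and was lower by day 14 (-1.30), with edgeR adjusted p of 2.5e-10 and 1.52e-09. Casp8, which cuts Gsdmc, rose by 1.21 at day 3 (edgeR adjusted p = 1.34e-16). Casp1, the enzyme of the inflammasome itself, had 828 to 1859 counts at day 0 and 1012 to 1077 at day 3, which lies within the day 0 range. Its log2 change at day 3 was -0.33 with all libraries (edgeR adjusted p = 0.0253), -0.67 without day 0 replicates 1 and 4 (7.73e-09) and 0.15 without replicates 2 and 3 (0.16). At day 10 it was lower in all 3 fits, with log2 changes of -0.73, -1.07 and -0.29 (edgeR adjusted p = 3.26e-05, 3.64e-13 and 0.0115). Without replicates 2 and 3 the caspase list had 6 higher and 0 lower at day 3.

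Other proteases that cut gasdermins were less uniform, with 2 of 7 higher and 2 lower at day 3 and 0 higher and 6 lower at day 14 (3 lower without day 0 replicates 1 and 4, 4 lower without replicates 2 and 3). Gzmb, the granzyme that cuts Gsdme, had a log2 change of 1.73 at day 3 and -1.38 at day 14 (edgeR adjusted p = 1.86e-07 and 2.98e-05), which became 2.59 and -0.53 without day 0 replicates 1 and 4 and 1.24 and -1.84 without replicates 2 and 3, all of them called. Capn2, a calpain of most tissues, rose by 0.63 at day 3 (edgeR adjusted p = 3.3e-10). Elane, neutrophil elastase, was low on both days, at 0.461 FPKM at day 0 and 0.0696 at day 3, a log2 change of -2.62 (edgeR adjusted p = 6.17e-05). The neutrophil markers were highest at day 3, and their relation to Elane was not tested.

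Of the 7 genes for cargo of the pores, 5 were higher and 1 lower at day 3, and 1 higher and 6 lower at day 14. Il1b rose from 6.16 to 379 FPKM at day 3, a log2 change of 6.00, and was below day 0 at day 14 (-2.73, edgeR adjusted p = 3.71e-19 and 2.58e-11). Il18 had a log2 change of 0.28 at day 3 (edgeR adjusted p = 0.0105, and 0.273 without day 0 replicates 1 and 4) and fell by 0.99 at day 14 (7e-10). Il33, an alarmin of epithelium and stroma, rose by 2.82 at day 3 (edgeR adjusted p = 3.62e-18), and Il36g, listed in the table as Il1f9, rose by 2.52 (2.73e-18).

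Among 8 genes of membrane rupture and repair 4 were higher and 2 lower at day 3. Ninj1, which tears the plasma membrane at the end of pyroptosis, rose by 1.04 at day 3 and 1.32 at day 5 and fell by 0.52 at day 14 (edgeR adjusted p = 4.87e-12, 6.67e-14 and 2.23e-06). Chmp4c, of the ESCRT machinery that reseals membranes, fell by 1.25 at day 3 (edgeR adjusted p = 9.44e-06). All 14 genes listed for the transcription and modification of gasdermins were higher at day 3 (12 without day 0 replicates 1 and 4), and 2 were higher and 8 lower at day 14. The largest rises at day 3 were those of Acod1, whose product itaconate modifies gasdermin D, with a log2 change of 8.68 (edgeR adjusted p = 2.35e-19, and 10.65 and 7.90 on the log2 scale with the first or the second pair of day 0 libraries left out), and Il4ra with 3.28 (1.5e-21). Pjvk, the remaining gasdermin gene of the mouse, had 0 to 17 counts in any library and was not tested. The median log2 change at day 3 was 2.14 for the cargo, 1.46 for the sensors, 0.65 for the caspases, 0.41 for the modifiers, 0.26 for the other proteases and 0.19 for membrane rupture and repair, beside -0.03 for all genes. The median of the other proteases was 0.43 without day 0 replicates 1 and 4 and -0.09 without replicates 2 and 3, so its sign and its place among the lists turned with the day 0 libraries.

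Outside the family, the genes most like each member over the 28 libraries were found among tested genes with a mean of at least 1 CPM, by Pearson correlation of log2 CPM, with no test. For Gsdmd these were Ms4a4a (0.98), Fyb (0.98) and Entpd1 (0.98), and for Gsdme Pdpn, Cyp4f16 and Plscr1 (0.93 each). For Gsdmc they were Gpr176 (0.98), Wfdc12 (0.97) and Sprr1b (0.97), the last a gene of the cornified envelope. Gsdma was most like Cpm (0.93), Dnase1l2 (0.91) and Krtap21-1 (0.91), of which Krtap21-1 encodes a protein of the hair shaft. The closest genes to Gsdma3 were Penk, Acot1 and Bmp4 (0.95 each). All the libraries compared share their days, so any pair of genes that follows the same days correlates.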

How the data were processed

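Total RNA was extracted with TRIzol and libraries were made with a VAHTS Universal V6 kit. The raw gene counts were deposited by the authors with no normalization, and the authors also deposited FPKM values, in which each count is divided by a fixed gene length and the library total. Per the labels, fastp, mm10 and R 3.2.0 were used. The aligner, the counting program and its use of strand are not given in the sources used here. The design text gives 5 repeats a day, and 4 libraries a day were analysed here.

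Counts of all 28 libraries were fitted in edgeR 4.0.16 (TMM factors, its filter on low counts, quasi-likelihood test). P-values were adjusted over 18107 genes by the Benjamini-Hochberg method, with a threshold of 0.05. The test was checked on simulated counts. Exact permutation tests used log2 CPM with a prior count of 2. Transcripts came from GENCODE release 21 on GRCm38, and identity was computed with Biopython 1.88. DESeq2 1.42.0 and limma 3.58.1 were alternatives. Members and lists were chosen with earlier results of these data known. In the lists, genes with a central role were named beside the 2 with the largest called day 3 change in each list at 1 CPM or more, and Nlrp10 and Il36g were added after their values were seen. A single listed gene is not reported here. Same-numbered libraries of different days did not deviate together, so numbers were not taken as pairs.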

Additional observations from a re-analysis of the deposited data

Results flagged for a closer look

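Among the 49 sets of 4 libraries tested, 7 members on 7 days, 2 held a library far from the other 3 by Dixon's criterion, and chance flags about 2.45. Replicate 2 of day 10 had a log2 CPM of 1.45 for Gsdme (108 counts), below the 1.87 to 1.92 of the other 3. Replicate 3 of day 5 had a log2 CPM of -1.17 for Gsdma2 (15 counts), above the -1.64 to -1.56 of the other 3, a difference of a few counts.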

How the results depend on the processing

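The number of gasdermins called by edgeR was 7, 7, 6, 6, 4 and 5 of 7 for day 3, day 5, day 7, day 10, day 12 and day 14 against day 0, and 3, 2, 3, 5 and 1 for the steps between neighbouring later days. Leaving out each library in turn gave 6 to 7, 5 to 7, 5 to 6, 6, 2 to 5 and 4 to 5 against day 0, 2 to 3, 2, 2 to 3, 4 to 5 and 1 to 2 for the steps, 7 for any day, and 10 to 11 of 12 changes of the cluster sums from day 0 (10 with all libraries). The criteria of the methods (an absolute log2 change over 1.5 with an unadjusted p under 0.05) gave 4 at day 5, 3 at day 10, 1 at day 12, 2 at day 14, 1 from day 3 to day 5, 0 from day 5 to day 7, 0 from day 7 to day 10, 3 from day 10 to day 12, 0 from day 12 to day 14 and 4 of the sums. In limma on log2(FPKM + 1) with a mean FPKM of at least 1, which tests 4 members, there were 4 at day 3, 4 at day 5, 3 at day 7, 3 at day 10, 2 at day 12, 3 at day 14, 0 from day 3 to day 5, 2 from day 12 to day 14 and 4 for any day. Without that minimum the count at day 12 was 2, and with a pseudocount of 0.1 it was 1 from day 7 to day 10. The 8 libraries of a comparison alone gave 1 at day 12, 1 at day 14 and 2 from day 12 to day 14, limma voom with weights by day gave 3 at day 14 and 2 from day 12 to day 14, and library totals gave 2 for that step. With the replicate block the counts were 7, 6, 5, 6, 3 and 5 against day 0 and 10 for the sums, although same-numbered libraries did not deviate together (84 pairs, 1 with a correlation over 0.1, and 8 of 28 libraries closest to their own number). Leaving out day 0 replicates 2 and 3, a choice made after seeing the data, gave 1 at day 12 and 2 at day 14. The cutoff on the size of the change and the smaller sets of samples and members bear on these counts by construction. Other causes were not tested.

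Some directions turned with the day 0 libraries. Without day 0 replicates 2 and 3 the log2 change from day 0 was 0.63, 1.69, 1.57, 0.39, 1.40 and 0.18 for Gsdma2 over the 6 later days, 0.14 and 0.063 for Gsdma at day 3 and day 5, 0.11 for Gsdma3 at day 14 and 0.12 for Gsdme at day 14. Without replicates 1 and 4 it was -0.091 for Gsdma at day 7, and -0.36 (which passed, adjusted p = 0.0025) and -0.15 for the Gsdma sum at day 7 and day 14. Other turns, in comparisons with day 0 and between later days, were in changes that passed no threshold: Gsdme at day 14 against day 0 (0.073 with library totals, 0.012 and 0.049 in limma with pseudocounts of 1 and 0.1, 0.019 with the 8 libraries alone, -0.19 to 0.092 with a library left out), Gsdmc from day 12 to day 14 (-0.024 with voom, -0.0044 and -0.032 in limma, -0.11 to 0.25 with a library left out) and Gsdmc2 from day 5 to day 7 (-0.098 with voom, -0.45 to 0.32). The Gsdma sum from day 3 to day 5 was 0.023 with upper quartile factors, 0.0019 with totals and 0.013 and 0.015 in limma with 1 and 0.1 (-0.077 to 0.066 with a library left out), and the Gsdmc sum from day 12 to day 14 was -0.014 in limma with 0.1 (-0.079 to 0.32). With a library left out, Gsdma from day 3 to day 5 ran from -0.12 to 0.034, Gsdma2 from day 5 to day 7 from -0.53 to 0.11, Gsdme from day 5 to day 7 from -0.22 to 0.0033, Gsdmc2 from day 7 to day 10 from -0.21 to 0.56, and the Gsdma sum at day 7 against day 0 from -0.18 to 0.24. Library totals in place of TMM shifted all genes by 0.14 at day 12 and 0.13 at day 14 against day 0 on the log2 scale.

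Counts of Gsdmc3 and Gsdmc4 were too few to follow, and those of Gsdma2 and of Gsdmc2 at day 0 give wide errors. Reads shared by the Gsdmc copies cannot be assigned by sequence, and levels do not show the cut of the proteins.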
